A study of Rattus norvegicus with 29 samples.

Results

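Chromatin accessibility was compared between the subventricular zone (SVZ) and Ammon's horn of the hippocampus (CA) in adult male Sprague-Dawley rats given saline. The regions compared have 3 saline libraries from SVZ and 4 from CA, of 29 ATAC-seq libraries in the series. The 8 saline libraries of other regions entered the fit to estimate the spread between replicates. ATAC-seq counts the insertions of a transposase that cuts where DNA is accessible. Each rat received 4 intraperitoneal injections at intervals of 2 h, of saline (1 mL/kg) or of methamphetamine (METH, 10 mg/kg), so the saline rats were handled and injected like the METH rats. The nucleus accumbens (NAc) and the dentate gyrus (DG) were sampled from the same rats. Each library came from 1 rat, and 3 of the saline rats gave both an SVZ and a CA library. SVZ and NAc were punched from the same anterior slices, whereas CA and DG were scooped from posterior tissue, so neighbouring tissue can enter a sample. The part of NAc tissue in the SVZ libraries was not tested.

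The SVZ lines the lateral ventricles and is one of the sites of the adult brain where neural stem cells persist. Its stem cells produce transit-amplifying cells and neuroblasts, most of which become GABAergic interneurons of the olfactory bulb. It borders the striatum, and it shares with it a ventral forebrain origin. CA consists mainly of glutamatergic pyramidal neurons, which arise from the dorsal forebrain, together with interneurons and glia. Open chromatin regions (OCRs) are stretches where reads pile up, and they include promoters and distal regulatory elements. Distal elements are the ones that differ most between cell types. In bulk tissue, fewer cells of a type and less accessibility per cell cannot be told apart.

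The authors merged the peaks of all libraries into 98237 OCRs and counted reads in each one. The SVZ libraries held 7550223 to 11406115 counts in OCRs and the CA libraries 12248124 to 19439840. The mean was 9543923 ± 1931307 (SD, n = 3) in SVZ and 15925538 ± 2974539 (SD, n = 4) in CA, with p = 0.0571 in a two-sided exact permutation test whose smallest possible p is 0.0286. Peaks numbered 50732 to 63592 per SVZ library and 66316 to 123299 per CA library (exact permutation p = 0.0571). The share of counts in the top 10% of OCRs by level did not separate the regions, at 50.2% ± 2.76 (SD, n = 3) in SVZ and 50.9% ± 5.92 (SD, n = 4) in CA (exact permutation p = 0.943). Within CA, however, it was 55.1% and 56.9% in replicates 1 and 2, and 45.5% and 46.0% in replicates 3 and 4. These pairs also differ in the letter case of a tag in their peak names. That tag is read here as the batch, which the labels do not state. CA replicates 1 and 2 correlated with each other at r = 0.942 across OCRs (log2 CPM), and CA replicate 2 correlated with CA replicate 4 at r = 0.688. CA replicate 2 was closer to SVZ replicate 2, at r = 0.856, than to CA replicate 3, at r = 0.727. SVZ replicate 3 was the shallowest of the 7 libraries. Its correlations with the other SVZ libraries were 0.823 and 0.874, against 0.896 between those. No pair of replicates agreed within sampling noise.

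The difference between regions accounted for 34.9% of the variance in log2 CPM among the 7 libraries. This was the highest value of the 35 possible splits into 3 and 4 libraries (exact permutation p = 0.0286, the smallest that the design allows). Without SVZ replicate 3 it was 31.1% and had rank 3 of 15 splits. Without SVZ replicate 1 it was 36.0% with rank 2, and without SVZ replicate 2 it was 34.6% with rank 3. With 2 SVZ libraries no p under 0.0667 can be reached. When a CA library was left out instead, it remained the highest of 20 splits.

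At the level of single OCRs, the calls went mainly to SVZ. An OCR was called when its level differed by more than 2-fold with a false discovery rate (FDR) under 0.01 in edgeR's quasi-likelihood test, fitted to all 15 saline libraries. By this rule 2377 OCRs (2.42% of those tested) were higher in SVZ and 267 (0.272%) were higher in CA, so that 89.9% of calls were higher in SVZ. The OCRs higher in SVZ had a median log2 fold change of 2.82, ranging from 1.09 to 6.11, and 947 of them differed by more than 8-fold. The OCRs higher in CA had a median of -2.78, with -5.67 as the largest difference. Over all OCRs the median log2 fold change was -0.04, and its median standard error was 0.42. The last OCR inside the FDR limit among those higher in SVZ had a log2 fold change of 2.16 (FDR = 0.0099998), and the first outside it 1.88 (FDR = 0.0100024).

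**Figure D1:**
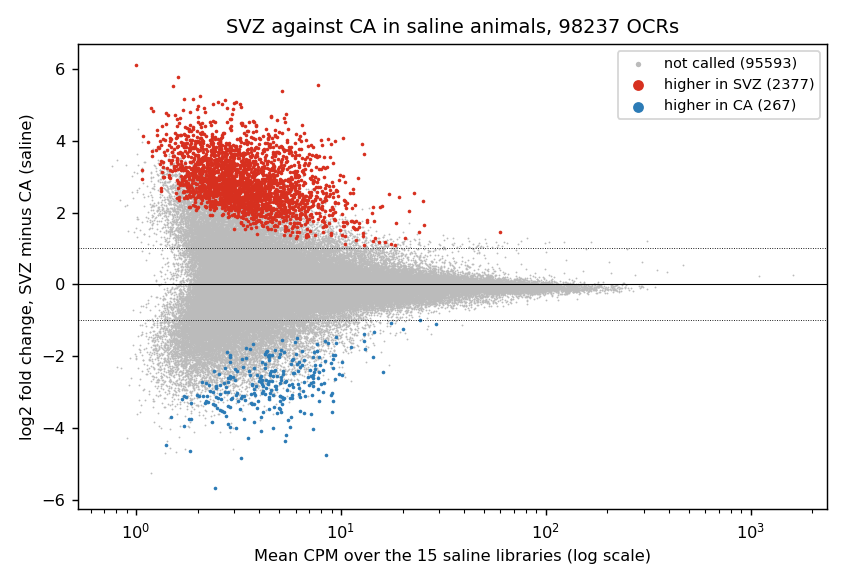
Each point is 1 of 98237 OCRs, with its mean CPM over the 15 saline libraries on a log axis and its log2 fold change (SVZ minus CA) on the vertical axis. Red points are the 2377 OCRs called higher in SVZ and blue points the 267 called higher in CA; dotted lines mark a 2-fold difference. Most called OCRs lie at low to middle levels, and few lie at the right.

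OCRs called higher in SVZ were less frequent at high levels. Among the tenth of OCRs with the lowest mean level, 4.40% were called higher in SVZ. Among the tenth with the highest level, 0.0509% were. OCRs called higher in CA were most frequent at middle levels, with 0.183% called in decile 1 of the mean level, 0.540% in decile 6 and 0.0204% in decile 10. The OCRs higher in SVZ had a median width of 625 bp, those higher in CA 731 bp and all OCRs 662 bp. They lay on every chromosome but Y, and the share called higher in SVZ ranged from 1.20% on chromosome 10 to 3.40% on chromosome 11 among the others.

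The number of calls rested on single libraries. Their direction could hardly turn, as SVZ and CA libraries did not overlap at 2376 of the 2377 OCRs and 263 of the 267. Without SVZ replicate 3, 189 OCRs were called higher in SVZ and 0 higher in CA, with 11074 and 6193 at an unadjusted p under 0.05. All 189 were among the 2377. All 2377 kept their direction, with a median log2 fold change of 2.34, and 1604 of them had an FDR under 0.05. All 267 kept theirs, with a median of -2.70, and 174 had an FDR under 0.05. Without CA replicate 1 the counts were 821 and 95, and without CA replicate 2 they were 1974 and 1377. Leaving out SVZ replicate 1 or 2 gave 61 and 36 OCRs higher in CA, and leaving out CA replicate 3 or 4 gave 99 and 113. With the animal as a block, 1913 OCRs were higher in SVZ and 402 higher in CA, of which 1722 and 187 were among the calls above. A fit to the 7 libraries alone called 0 OCRs at FDR 0.01 in edgeR, with 16808 at an unadjusted p under 0.05, and DESeq2 called 3089 and 1341 in the same libraries. In that edgeR fit, 1752 of the 2377 and 161 of the 267 had an FDR under 0.05. Loess offsets in place of the upper quartile gave 1586 and 575, a share of 73.4% higher in SVZ.

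**Figure D2:**
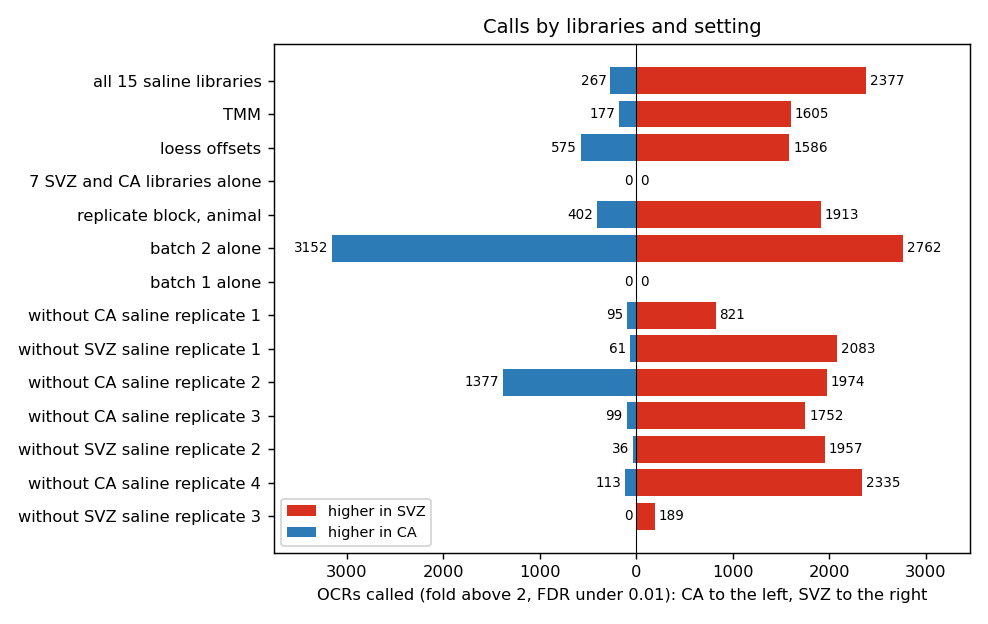
Bars give the number of OCRs called higher in SVZ (to the right) and higher in CA (to the left) with all 15 saline libraries, with other settings, and without each of the 7 libraries in turn. The count for SVZ falls from 2377 to 189 without SVZ replicate 3, and the count for CA ranges from 0 to 1377 over the libraries left out.

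The same OCRs were also read within each batch tag. In batch 1, with 1 SVZ and 2 CA libraries, the median difference in log2 CPM was 2.30 over the 2377 OCRs and -1.60 over the 267. In batch 2, with 2 libraries of each region, it was 2.52 and -3.14. All 2377 were higher and all 267 lower in SVZ in both batches. SVZ and CA libraries did not overlap at 2376 and 263 of these, so the choice of OCRs nearly fixed the direction. A fit to batch 2 alone called 2762 OCRs higher in SVZ and 3152 higher in CA, and a fit to batch 1 alone called 0, with 18595 at an unadjusted p under 0.05. Paired within an animal, the median difference over the 2377 OCRs was 2.41, 1.98 and 3.06 for SVZ replicates 1, 2 and 3. These pairs, too, are of the libraries that chose the OCRs.

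Across libraries, the OCRs called higher in SVZ had a median of 3.59, 3.82 and 8.15 CPM in SVZ replicates 1, 2 and 3. In the CA libraries the median was 0.554, 0.656, 0.799 and 0.781 CPM. The groups did not overlap for 2376 of the 2377, where 10.5% of all OCRs have every SVZ library above every CA library. For the OCRs called higher in CA, the CA medians were 5.19, 2.95, 8.64 and 10.4 CPM, with replicates 1 and 2 below replicates 3 and 4. The SVZ medians were 1.16, 1.04 and 0.945 CPM. The groups did not overlap for 263 of the 267, against 4.5% of all OCRs. These values come from the libraries that chose the OCRs and are a description.

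**Figure D3:**
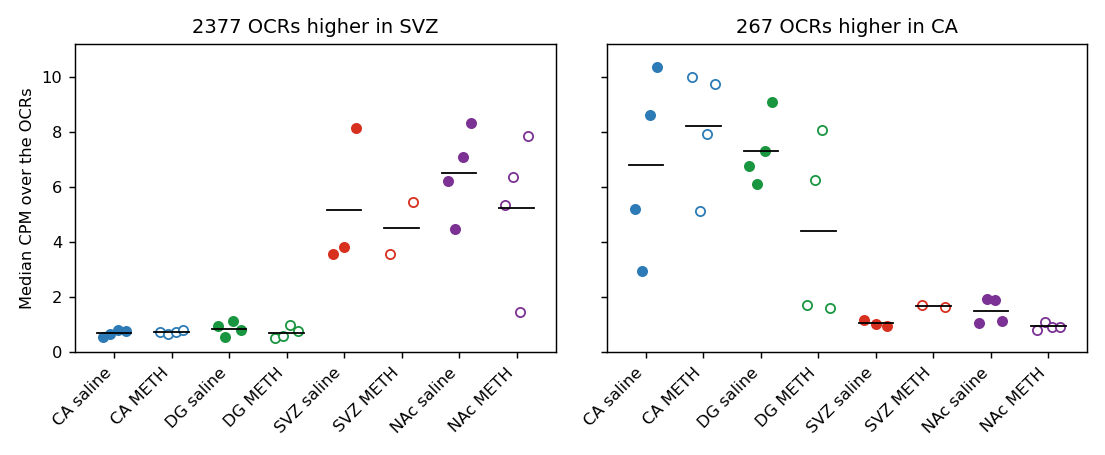
Points are the median CPM of each of the 29 libraries over the 2377 OCRs called higher in SVZ (left) and the 267 called higher in CA (right); filled points are saline, open points METH, and bars are group means of these medians. SVZ and NAc libraries are high on the left, apart from 1 NAc METH library at 1.48, and CA and DG libraries are high on the right, apart from 2 DG METH libraries at 1.72 and 1.62.

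The same OCRs were then read in the METH rats, which the saline comparison did not use. Both SVZ METH libraries carry the tag of batch 2. All 2377 OCRs were higher in SVZ there too, where 47.7% of all OCRs were. Of them, 2311 differed by more than 2-fold, or 97.2% against 12.3% of all OCRs, and the median log2 fold change was 2.52. By the same rule 484 were called, or 20.4%, where 1.35% of all OCRs were called higher in SVZ. Both SVZ METH libraries lay above all 4 CA METH libraries for 2332 of the 2377, against 18.9% of all OCRs. All 267 OCRs called higher in CA were also higher in CA after METH, with a median of -2.28, and 15 were called, where 0.0316% of all OCRs were. All 4 CA METH libraries lay above both SVZ METH libraries for 254 of the 267, against 16.1% of all OCRs. Within batch 2, with 2 METH libraries of each region, the median difference in log2 CPM was 2.23 over the 2377 OCRs and -2.23 over the 267. SVZ METH has 2 libraries, and the calls depended on them. Without SVZ METH replicate 1, or without CA METH replicate 3, 0 OCRs were called, with 11801 and 16107 at an unadjusted p under 0.05, and without SVZ METH replicate 2 there were 4 higher in SVZ. Of the 2377, between 2372 and 2377 kept their direction when any 1 of the 6 METH libraries was left out, and all 267 did.

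**Figure D4:**
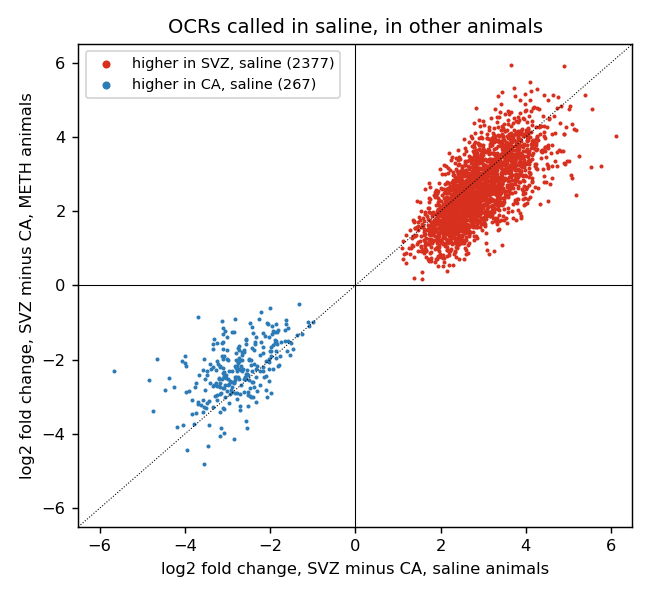
Each point is an OCR called in saline, with its log2 fold change (SVZ minus CA) in saline rats on the horizontal and in METH rats on the vertical axis; the dotted line marks equal values. All 2377 red points (higher in SVZ) and all 267 blue points (higher in CA) lie in the quadrants of equal sign.

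The regional difference was next compared between METH and saline. The test of the interaction called 0 OCRs in edgeR, with a lowest FDR of 1.00. Of 98237 OCRs, 1555 had an unadjusted p under 0.05, fewer than expected under no difference. Of these, 46 were among the 2644 called in saline. With TMM scaling it also called 0, with 2027 at an unadjusted p under 0.05. No DESeq2 test of the interaction was run. With 2 SVZ METH libraries, 0 calls do not show that METH left the regional difference unchanged.

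The levels in NAc and DG showed where else these OCRs were open. The NAc and DG saline libraries were not part of the contrast of SVZ with CA, but they shared its fit and helped set the estimate of spread that decided the calls, so they are not independent of the choice of OCRs. NAc minus DG was positive at 2367 of the 2377 OCRs called higher in SVZ, with a median log2 fold change of 2.91. Of them, 2126 were called higher in NAc than in DG, or 89.4%, where 4.74% of all OCRs were. DG exceeded NAc at all 267 OCRs called higher in CA, with a median of -2.18, and 179 of them were called, or 67.0% against 1.49% of all OCRs. The median level of the 2377 was 6.49 CPM in NAc, 5.24 in SVZ, 0.872 in DG and 0.719 in CA. Their highest mean was in NAc for 1940 and in SVZ for 437. For the 267 the median was 7.52 CPM in DG, 7.05 in CA, 1.59 in NAc and 1.02 in SVZ. The rats of these NAc and DG libraries are the ones that gave the SVZ and CA libraries.

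The authors' peak calls, made per library, gave the opposite balance. A peak was present in all 3 SVZ libraries and in no CA library at 602 OCRs (0.613%), and in all 4 CA libraries and in no SVZ library at 2489 (2.53%). The CA libraries were deeper and had more peaks, and the part of depth in this count was not tested. Of the 602 OCRs with peaks in SVZ alone, 464 (77.1%) were also called higher in SVZ by counts, where 2.42% of all OCRs were. Of the 2489 with peaks in CA alone, 120 (4.82%) were called higher in CA, where 0.272% of all OCRs were. Peaks and counts come from the same libraries, so these overlaps are a description. In the METH rats, 290 of the 602 (48.2%) again had a peak in both SVZ libraries and in no CA library, where 1.63% of all OCRs did. For the 2489, 1074 (43.1%) had a peak in all 4 CA METH libraries and in no SVZ METH library, where 8.11% of all OCRs did. Of the 602, 490 (81.4%) had a peak in all 4 NAc saline libraries, where 43.1% of all OCRs did. No DG saline library had a peak at 522 (86.7%), where this held for 16.0% of all OCRs. The 2489 stood nearer to all OCRs. Of them, 1095 (44.0%) had a peak in all 4 DG saline libraries, where 37.1% of all OCRs did. No NAc saline library had a peak at 592 (23.8%), where this held for 20.0% of all OCRs.

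The OCRs are described below by position in the rat genome build rn6, which the submitters' notes name. No rn6 gene annotation was used here, so most have no gene name. Of the OCRs called higher in SVZ with the lowest FDR, chr4:32365152-32366273 stood first. Its level was 14.2, 12.0 and 19.6 CPM in the SVZ libraries and 0.831, 1.90, 2.18 and 1.65 CPM in the CA libraries. The log2 fold change was 3.21 ± 0.32 (SE; FDR = 0.000347) in saline rats and 3.31 in METH rats (FDR = 0.00175). The OCR at chr3:101958837-101959659 was on both lists, with the lowest FDR and with the largest fold change. It held 6.44, 7.39 and 24.6 CPM in SVZ and 0.0692, 0.394, 0.363 and 0.230 CPM in CA. SVZ replicate 3 was more than 3 times as high as the others, and every SVZ library lay far above every CA library. Its log2 fold change was 5.55 ± 0.56 (SE; FDR = 0.000347), and 4.76 in METH rats (FDR = 0.00288).

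At chr5:166455022-166455857 the SVZ libraries held 18.9, 11.4 and 32.0 CPM and the CA libraries 1.05 to 1.73 CPM. At chr15:9638288-9639213 they held 7.91, 10.3 and 22.1 CPM against 0.436 to 1.18 CPM. Both were called in METH rats as well (FDR = 0.00639 and 0.00782). The OCR at chr2:202747168-202748080, with the fourth lowest p, held 12.1, 11.4 and 22.1 CPM in SVZ and 1.16 to 2.48 CPM in CA. In METH rats it held 5.68 and 16.9 CPM in SVZ, and 1 CA library reached 7.49 CPM, so that the groups overlapped (log2 fold change 1.66, FDR = 0.298). All 5 OCRs had a peak in every SVZ saline and every NAc saline library. The OCR on chromosome 2 had one in 1 CA and 3 DG saline libraries as well, and the other 4 had none there. All 5 stayed called without SVZ replicate 3, with FDR up to 0.00276.

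Of the 5 OCRs with the largest fold changes, 3 were faint, with a mean of 1.00 to 1.60 CPM over the saline libraries against a median of 4.33 CPM over all OCRs. At chr20:53625246-53625620 the SVZ libraries held 0.844, 0.782 and 3.54 CPM, from 47 reads, and the CA libraries held 1 read in all. The ratio of pooled levels was 105, with a 95% exact counting interval of 17.9 to 4217, which covers counting error only. At chr3:157253472-157253857 there were 80 reads in SVZ and 3 in CA, a ratio of 59.3 (interval 19.6 to 294). At chr8:76092664-76093106 there were 85 and 4 reads, a ratio of 47.3 (interval 17.8 to 177). The CA reads at these 3 OCRs all fell in replicate 4, the deepest library. The remaining one, chr4:20391844-20392613, had 249 and 13 reads. It held 3.80, 5.04 and 18.3 CPM in SVZ and 0.0459 to 0.415 CPM in CA, and was called in METH rats too (log2 fold change 5.13, FDR = 0.00586). Of these 5 by fold change, 1 stayed called without SVZ replicate 3, with log2 fold changes of 4.35 to 5.06 over the 5.

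Among OCRs higher in CA, chr6:78862722-78863350 had the lowest FDR (0.00114). It held 3.05, 2.04, 6.39 and 4.91 CPM in CA and 0.422, 0.348 and 0.236 CPM in SVZ, with a log2 fold change of -3.56 ± 0.54 (SE). At chr7:134815670-134816694 the CA libraries held 6.65, 4.66, 17.6 and 13.6 CPM and the SVZ libraries 0.591 to 1.06 CPM. At chr7:82549291-82550168 they held 6.58, 4.004, 14.3 and 11.9 CPM against 0.0869 to 0.827 CPM. At chr16:68334413-68335119 they held 9.83, 3.22, 23.3 and 16.3 CPM against 0.608 to 0.945 CPM. At all 4 the CA replicates 3 and 4 were above replicates 1 and 2, and all CA libraries were above all SVZ libraries. The OCR at chr7:82549291-82550168 and the one on chromosome 16 were called in METH rats (FDR = 0.00494 and 0.00377). The fifth by FDR, chr4:62094548-62095095, held 1.90 to 10.3 CPM in CA and 0.261 to 0.354 CPM in SVZ. None of these 5 stayed called without SVZ replicate 3, where their FDR reached 0.0161 and their log2 fold changes lay between -4.71 and -3.33.

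The OCRs with the largest fold changes toward CA rested on few SVZ reads. At chr4:40625694-40626319 the SVZ libraries held 2 reads and the CA libraries 247, at 2.63, 0.460, 9.37 and 3.35 CPM. At chr5:12921142-12921570 they held 3 and 205 reads, and at chr1:225826567-225826948 they held 3 and 171. The pooled SVZ to CA ratios of these 3 were 0.0180 (95% exact counting interval 0.00217 to 0.0658), 0.0326 (0.00666 to 0.0965) and 0.0390 (0.00797 to 0.116). At chr13:67100424-67101082 there were 17 and 1070 reads, and the CA libraries held 7.55, 4.07, 25.6 and 25.1 CPM against 0.211 to 0.782 CPM in SVZ. This OCR was also called in METH rats (log2 fold change -3.39, FDR = 0.00728). At chr1:187556004-187556538 there were 6 and 448 reads. These 5 OCRs lost the call without SVZ replicate 3, and 4 of them kept it with the animal as a block.

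Of the 2377 OCRs higher in SVZ, 541 (22.8%) formed 231 runs in which successive called OCRs were at most 50 kb apart, with or without other OCRs between them. Whether this is more than the spacing of all OCRs gives was not tested. Of the 267, 4 formed 2 runs. As the sets differ in size, these shares are not compared. The run with the most members held 10 OCRs in 34.4 kb at chr4:32365152-32399597, and every OCR of the consensus set in that interval was called. Their log2 fold changes ran from 1.54 to 3.21 with a median of 2.30. All 10 were higher in SVZ in METH rats, with a median of 2.50. Their median level was 8.58 CPM in SVZ, 6.33 in NAc, 1.84 in DG and 1.73 in CA. The highest levels of the run were at its first OCR, given above, and at chr4:32372550-32373183, where the mean was 14.6 CPM in SVZ and 2.64 in CA. At chr4:32383920-32384527 SVZ exceeded NAc, with means of 9.47 and 5.47 CPM. Without SVZ replicate 3, 6 of the 10 stayed called, and with the animal as a block 9 did.

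**Figure D5:**
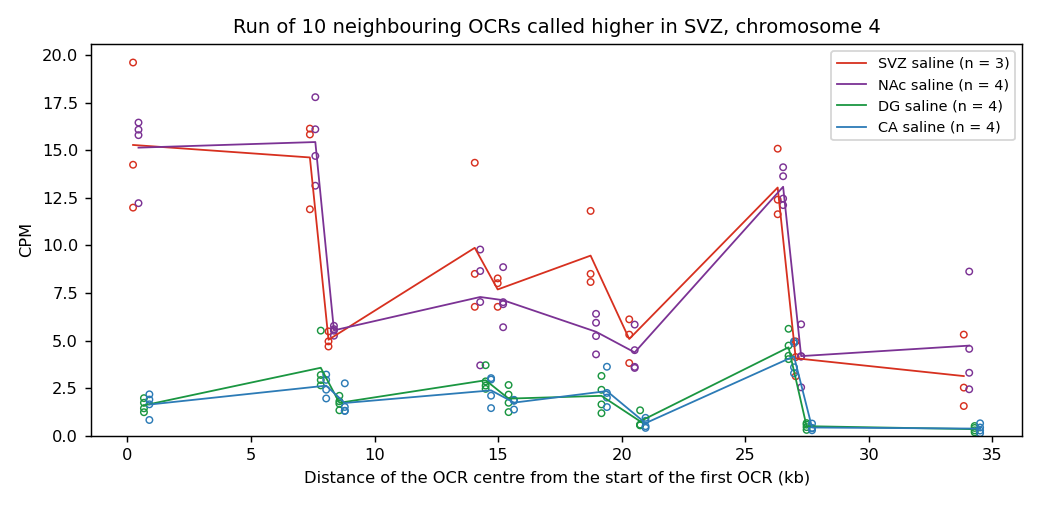
The 10 OCRs of the run on chromosome 4 by distance of their centre from the start of the first (horizontal axis, kb; regions are drawn slightly side by side) with their CPM in each saline library (points) and the mean of each region (lines, which join neighbouring OCRs only to guide the eye). SVZ and NAc means lie above DG and CA means at all 10 OCRs.

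A second run at chr6:8880145-8912338 held 6 called OCRs of 7. Their log2 fold changes ran from 1.75 to 3.32, and their median level was 4.98 CPM in SVZ, 4.15 in NAc, 0.795 in CA and 0.479 in DG. None of the 6 stayed called without SVZ replicate 3, where their FDR reached 0.0570, and 5 did with the animal as a block. The third run, at chr17:89170832-89254507, held 6 called OCRs of 6, with log2 fold changes of 2.27 to 3.32. Its median level was 12.2 CPM in NAc, 10.6 in SVZ, 1.76 in DG and 1.67 in CA, and 3 of the 6 stayed called without SVZ replicate 3. The 2 runs higher in CA held 2 OCRs each. At chr15:108027942-108030874 the log2 fold changes were -1.94 and -1.97, and at chr9:6750770-6770478 they were -3.19 and -4.01. All 4 were lower in SVZ in METH rats, and none stayed called without SVZ replicate 3.

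Gene names were available for few OCRs, through the study's list of rat OCRs whose human counterparts hold a variant from genome-wide association studies. Of 814 OCRs on that list, 556 have their human counterpart inside a named human gene. Of these, 8 were called higher in SVZ (1.44%, against 2.42% of all OCRs) and 0 higher in CA (against 0.272% of all OCRs). At an unadjusted p under 0.05 were 50 and 28 of the 556, against 12799 and 8711 of all 98237 OCRs. The gene is the human one in which the variant lies, and it need not be the gene the OCR acts on. The variants of that list are tied to neurological functions and disorders, so its OCRs are not a sample of all OCRs.

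Lists of 12 gene groups covered 246 genes, of which 54 had 71 OCRs by this route. Of these 71, 2 were called higher in SVZ and 0 higher in CA, with 16 at an unadjusted p under 0.05 in either direction. These shares, 2.82% and 22.5%, are near those over all OCRs, 2.42% called higher in SVZ and 21.9% at an unadjusted p under 0.05, so the called members below are given as single values. The log2 fold changes of the other 55 lay between -1.01 and 0.74. Among striatal projection neuron genes, 1 of 2 OCRs was called. It lies in ADCY5, the adenylyl cyclase that dopamine receptors act on in striatal neurons. At chr11:68778236-68778767 the SVZ libraries held 6.75, 6.17 and 16.3 CPM and the CA libraries 1.87, 2.04, 1.82 and 1.42 CPM. The groups did not overlap, and the log2 fold change was 2.44 ± 0.46 (SE; FDR = 0.00368). In METH rats it was 3.27 (FDR = 0.00818), and the level in NAc was 12.1 CPM against 2.14 in DG. A second OCR in ADCY5 did not pass the test (FDR = 0.843).

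The only OCR of the choroid plexus list lies in TRPM3, a cation channel gene that epithelial cells of the plexus and some neurons and glia express. At chr1:240388429-240388855 the SVZ libraries held 2.43, 2.00 and 4.84 CPM and the CA libraries 0.277 to 0.581 CPM (log2 fold change 2.72, FDR = 0.00644). Its level in NAc, 3.25 CPM, was close to the SVZ mean of 3.09 CPM. In METH rats its log2 fold change was 3.05 (FDR = 0.0587). No other choroid plexus gene had an OCR by this route, so the presence of plexus tissue was not tested.

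Among ventral forebrain and GABAergic genes, 0 of 7 OCRs were called. The one with the lowest p lies in GAD1, which makes GABA from glutamate. It held 16.1, 10.1 and 14.1 CPM in SVZ and 2.56, 1.64, 6.97 and 6.02 CPM in CA, so the groups did not overlap, with a log2 fold change of 1.64 ± 0.45 (SE; FDR = 0.0311). CA replicates 1 and 2 were the low ones. In METH rats the groups overlapped (log2 fold change 0.63, FDR = 0.485). Of 23 OCRs in glutamate receptor and synaptic genes, 0 were called. An OCR in the GABA-A receptor subunit gene GABRB1 held 26.9, 20.4 and 20.9 CPM in SVZ and 3.54 to 14.8 CPM in CA (log2 fold change 1.32, FDR = 0.0411). An OCR in BDNF, the gene of a neurotrophin abundant in hippocampal pyramidal neurons, held 0.528, 1.56 and 1.54 CPM in SVZ and 2.35, 1.51, 7.12 and 7.44 CPM in CA (log2 fold change -1.92, FDR = 0.0553). The groups overlapped through CA replicate 2. In METH rats BDNF had a log2 fold change of -2.17 (FDR = 0.0958). OCRs in PLCB1 and CACNA2D3 had log2 fold changes of 2.09 (FDR = 0.0605) and 1.26 (FDR = 0.0983). In METH rats the log2 fold change was 0.75 for GABRB1 (FDR = 0.317), 0.26 for PLCB1 (FDR = 0.919) and 0.87 for CACNA2D3 (FDR = 0.511).

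Markers of the SVZ niche were scarcely covered. Of 28 neural stem and progenitor genes, 4 OCRs were available and 0 were called. PRDM16, a regulator of neural stem cells, held 17.4, 5.13 and 6.26 CPM in SVZ and 4.18 to 5.65 CPM in CA, with SVZ replicate 1 far above and SVZ replicate 2 within the CA range (FDR = 0.210). NFIX had a log2 fold change of -0.48 (FDR = 0.220). Of 7 OCRs in Hedgehog pathway genes, which control SVZ stem cells, 0 were called. SUFU, an inhibitor of the pathway, held 3.27, 3.39 and 4.02 CPM in SVZ and 1.10 to 1.77 CPM in CA without overlap (log2 fold change 1.28, FDR = 0.0698). CDON, a Hedgehog co-receptor, had a log2 fold change of -1.41 (FDR = 0.196). The only OCR of the ependymal and ciliary list, in CFAP61, did not pass the test. The labels SVZ and CA could therefore not be checked against most of their defining markers.

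Of 17 OCRs in dorsal forebrain and pyramidal neuron genes, 0 were called, and 10 of the 17 were higher in SVZ. The one that the study's list pairs with both LMO3 and MGST1 had a log2 fold change of 1.02 (FDR = 0.131). The one in SORCS3 had -0.67 (FDR = 0.135). For the glial and vascular lists, 0 of 3 OCRs in astrocyte genes, 0 of 1 in oligodendrocyte genes and 0 of 5 in microglial genes were called, with median log2 fold changes of 0.40, -0.10 and -0.20. No OCR of the endothelial and mural list was covered.

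The other 6 OCRs called higher in SVZ lie in genes of no list, and were singled out after their values were seen. CDH8 encodes a classical cadherin, a neuronal adhesion molecule. At chr19:6354849-6355507 the SVZ libraries held 3.27, 3.48 and 9.45 CPM and the CA libraries 0.554, 0.328, 0.145 and 0.321 CPM, a log2 fold change of 3.95 ± 0.63 (SE; FDR = 0.00146). In METH rats it was 3.81 (FDR = 0.01001, outside the limit). The OCR in PRKD1, a protein kinase gene, held 2.74, 2.95 and 11.8 CPM in SVZ and 0.415 to 1.12 CPM in CA (log2 fold change 2.84). TRPS1, a GATA-type transcriptional repressor gene, had a log2 fold change of 2.54, with 2.00 to 6.03 CPM in SVZ and 0.346 to 0.726 CPM in CA. The OCRs in ALPK2, ASAP2 and AREL1 had log2 fold changes of 2.41, 2.31 and 2.72 with FDR of 0.00497 to 0.00867. In METH rats ASAP2 had a log2 fold change of 0.85 (FDR = 0.467), and its SVZ and CA libraries overlapped. PRKD1, TRPS1, ALPK2 and AREL1 had log2 fold changes of 1.86 to 3.03 there, with FDR of 0.0466 to 0.0704. Of the 8 called loci, only the one in ADCY5 was also called in METH rats. SVZ replicate 3 was the highest of the SVZ libraries at all 8 called loci. With the animal as a block, 5 of the 8 were called. Without SVZ replicate 3 none was, and their log2 fold changes lay between 1.82 and 3.28 with FDR of 0.0169 to 0.0886.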

How the data were processed

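ATAC-seq libraries were made by the authors with the omni-ATAC protocol for frozen tissue and processed with the AIAP pipeline on rn6; per the labels' processing notes, bedtools was used, for which no source at hand gives a version. The deposited matrix holds raw read counts, not normalized, for 98237 consensus OCRs and 29 libraries; no other column of per-sample values was present. The deposited peak lists, called per library by the authors, hold a fold enrichment, -log10 p-value and -log10 q-value for each peak, and a score that follows the q-value.

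Groups came from the sample titles. Animal and batch were inferred from tags inside the peak names, the batch from the letter case of a tag. The labels do not state them. Starts were converted to count from 1. The count fit used edgeR 4.0.16 (quasi-likelihood F test, trended dispersion, robust), upper-quartile scaling and filterByExpr, which removed no OCR, over the 15 saline libraries; FDR is Benjamini-Hochberg over all OCRs. The methods of the study add RUVr factors, without stating their number, so 2 factors were an alternative. METH libraries were fitted apart, and the interaction over all 29. CPM used upper-quartile scaling over 29 libraries; log2 CPM used a prior count of 2. Standard errors were taken from the F value. Peaks and OCRs were intersected with bedtools 2.31.1 (at least 1 bp). DESeq2 1.42.0, TMM, loess offsets, blocks, batch terms, other filters and thresholds, and leaving out each library were tried. The code was tested on simulated data.

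SVZ and CA libraries of the same animal did not deviate together (r = -0.000382, -0.185 and 0.138 for the 3 animals); the pairing comes from the animal tags, and the fit with the animal as a block is given where it moved a count by over 1.5 times or is set beside the count without SVZ replicate 3. Among the saline libraries of SVZ and CA, replicate numbers in the titles match animals for replicate 1 only. Among the METH libraries, SVZ replicates 1 and 2 carry animal tags 24 and 25, and CA replicates 1 and 2 carry 20 and 21. No number matches there.

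The SVZ libraries held 7550223 to 11406115 counts and the CA libraries 12248124 to 19439840. How far precision follows depth was not tested. Counting intervals cover counting error only.

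OCRs were named by rule: in each direction the 5 with the lowest FDR and the 5 with the largest fold change among those without overlap, at most 1 per 100 kb; the 3 runs with most members; and OCRs in genes of 12 lists, with values for up to 4 per list at an unadjusted p under 0.05. Lists and members were chosen with earlier results of these data known. No sequence is printed, since no rn6 sequence was used here.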

Additional observations from a re-analysis of the deposited data

Results flagged for a closer look

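In 129 groups of 4 libraries that stand behind the named OCRs and runs, 8 held 1 library whose gap to its nearest neighbour exceeded Dixon's 95% critical value for 4 samples. This is 6.20% of the groups, and chance flags about 5%. In 3 of them, CA saline replicate 4 was the only CA saline library with reads. It held 0.0459 CPM at chr20:53625246-53625620, 0.138 CPM at chr3:157253472-157253857 and 0.184 CPM at chr8:76092664-76093106. In the run on chromosome 4, the highest CA saline library held 2.76 CPM at chr4:32373403-32373836, and the lowest held 1.38 CPM at chr4:32380179-32380751. In the same run the lowest CA METH library held 1.77 CPM at chr4:32383920-32384527. At chr13:67100424-67101082 the lowest CA METH library held 11.9 CPM, and at chr9:6769750-6770478 the highest CA METH library held 17.1 CPM. The part of depth in these values was not tested.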

How the results depend on the processing

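The direction of the called OCRs held in every setting for saline rats that tested them, and no OCR named above changed direction. For the called OCRs this was nearly fixed by their choice, as these settings refitted libraries that chose them. The number called did not hold. In saline rats, OCRs higher in SVZ numbered 189 to 2335 and those higher in CA 0 to 1377 when 1 of the 7 libraries was left out. OCRs higher in CA numbered 177 with TMM scaling, 575 with loess offsets, 563 with batch as a covariate and 3152 in batch 2 alone. Counts higher in SVZ and in CA were 4572 and 2512 with DESeq2's Wald test, 7552 and 2785 with 2 RUVr factors, 5991 and 2141 at FDR under 0.05, and 223 and 0 at FDR under 0.001 and a fold above 1.5. The 7 libraries alone gave 0 and 0. The cause of these shifts was not tested. The settings chosen after seeing the data gave 0 and 0 for the 7 libraries with TMM (16192 at an unadjusted p under 0.05), 1341 higher in CA for the 7 libraries with DESeq2, and 0 and 0 for batch 1 alone.

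With the animal as a replicate block, 402 were higher in CA. With the title's replicate number as the block, 3470 were higher in SVZ and 207 in CA; same-numbered libraries correlated at r = -0.000382, 0.218 and 0.0345, so the numbers alone do not pair them.

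In METH rats the counts higher in SVZ and in CA were 1329 and 31, against 546 and 15 with TMM. With the replicate number as the block they were 0 and 1 (18474 at an unadjusted p under 0.05). That block put SVZ METH libraries with CA METH libraries of other animals and of the other batch tag. No fit of the METH libraries with the animal as a block was run. Leaving out 1 library gave 0 to 708 and 0 to 24.

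The difference in peaks per library was -42125 to -23130, and in counts -7607419 to -5210181, over the libraries left out. The difference in top-decile share ranged from -2.44 to 1.33 percentage points, turning positive without CA replicate 1 (0.736), CA replicate 2 (1.33) or SVZ replicate 3 (0.889). The variance share ranged from 31.1% to 45.6%, in designs that cannot reach a p under 0.0667. OCRs with peaks in SVZ alone numbered 910 without SVZ replicate 3. The faint OCRs rest on few reads, and their counting intervals are given with their ratios.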
